A study of Mus musculus with 12 samples.

Results

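Venular and activated endothelial cells of the mouse joint were examined in single-cell RNA sequencing of CD45- synovial cells, as 251 cells among 20213 cells with 501 to 4999 detected genes. A cell was taken as endothelial with at least 3 of Pecam1, Cdh5, Kdr, Emcn and Egfl7 detected and at most 1 of the lymphatic genes Prox1, Mmrn1, Ccl21a and Flt4, and as venular where more genes were detected of Selp, Sele, Vwf, Vcam1 and Lrg1 than of the capillary genes Gpihbp1, Cd36, Timp4, Car4 and Aqp7. Detected means 1 or more unique molecular identifiers (UMIs, counted transcripts). The converse rule gave 1323 capillary cells, and 174 cells had equal numbers of both sets. These 1748 cells are called vascular here, and 144 further endothelial cells with 2 or more lymphatic genes were set apart as lymphatic.

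All 12 libraries came from C57BL/6 WT mice (young adult males in the study's methods), and each pooled cells from the hind limb joints of 3 animals, so single animals cannot be told apart. Serum transfer-induced arthritis (STIA) is a transient joint inflammation started by antibodies in serum from arthritic K/BxN mice. By their labels, 3 libraries were at rest (day 0, no serum), and 3 each followed an intravenous injection of 100 µl serum at the peak stage (day 7 to day 9), while resolution was under way (resolving, day 15) or after it (resolved, day 22). Joints were digested enzymatically and live CD45- cells were sorted before 10x Genomics 3′ sequencing.

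Postcapillary venules are the segment of the vascular tree at which leukocytes leave the blood. Their endothelium stores P-selectin (Selp) and von Willebrand factor (Vwf) in Weibel-Palade bodies, and inflammatory cytokines induce E-selectin (Sele) and VCAM-1 (Vcam1), so that rolling and firm adhesion of leukocytes take place there. Lrg1 encodes a secreted glycoprotein that modulates TGF-beta signalling in endothelium, while capillary endothelium carries the machinery of fatty acid uptake, to which Gpihbp1 and Cd36 belong. On GRCm38 (GENCODE M21), Sele (chr1:164048234-164057677) and Selp (chr1:164115264-164150026), both on the plus strand, lie 57.6 kb apart. Vcam1 is at chr3:116109949-116129688 on the minus strand, Vwf at chr6:125546774-125686679 on the plus strand and Lrg1 at chr17:56119678-56122001 on the minus strand.

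The libraries held 1277 to 2817 deposited cells and 7969872 to 17047322 UMIs, and no barcode was shared between libraries. The median deposited cell had 5358 UMIs in every one of the 12 libraries. Each library carries its own suffix on its cell barcodes, from 1 to 12, and the suffixes do not follow the labels: suffixes 1-3 mark the first rest, peak and resolving libraries, 4-6 the first resolved and the second rest and peak libraries, 7-9 the second resolving and resolved and the third rest library, and 10-12 the third peak, resolving and resolved libraries. In vascular sums, the library most like a given one had the same suffix run in 10 of 12 cases and the same label in 0, with a median correlation across 2989 genes of 0.953 within runs and 0.888 within labels. For the smaller venular sums these counts were 6 and 2 of 12, with medians of 0.827 and 0.780 over 2903 genes. Genes and shared libraries are not independent points, so these are descriptions. Because the libraries stood apart by run and not by label, each comparison is given for both, and the labels do not say what the runs stand for. The files do not settle whether each stage label stands with the right library, so every value by label holds as labelled only.

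The genes that chose the cells are given without a test. Lrg1 was detected in 78.9% of venular cells and 7.18% of capillary cells, Vwf in 57.4% and 7.94%, Selp in 56.2% and 0.983%, Sele in 37.8% and 0.454%, and Vcam1 in 36.3% and 5.06%. Vcam1 was also detected in 29.8% of all non-endothelial cells, and leaving it out of the rule is among the alternatives. Of the endothelial genes, Pecam1 reached 96.4%, Egfl7 95.6%, Cdh5 91.2%, Emcn 86.9% and Kdr 57.8% of venular cells. The capillary genes were not absent: Cd36 was detected in 37.5% and Gpihbp1 in 30.7% of venular cells, against 3.98% for Timp4, 3.98% for Car4 and 2.39% for Aqp7. Venular cells had a median of 4706 UMIs and 1792 genes and capillary cells 3037 UMIs and 1392 genes, and the part of this depth difference in the detection rates was not tested.

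Venous and capillary markers that the rule did not use differed between venular and capillary cells in the direction of the names. At least 2 of the venous genes Nr2f2, Ackr1, Ephb4, Slco2a1 and Il1r1 were detected in 45.8% of venular and 6.88% of capillary cells. The share was 20.1% in cells with equal numbers of both sets and 23.6% in lymphatic cells. At least 1 was detected in 74.9% of venular and 68.8% of lymphatic cells, so these genes were not particular to venular cells. After every cell was thinned to 2000 UMIs, which left 246 venular and 1152 capillary cells, the shares with at least 2 were 21.5% and 1.39%. Ackr1, the atypical chemokine receptor that venular endothelium displays, had a UMI in 25.5% of venular and 0.680% of capillary cells (21.5% and 0.434% when thinned). In cells with fewer than 3 of the endothelial genes (median 5626 UMIs) the share was 4.72%. At least 2 of the unused capillary genes Rgcc, Fabp4, Cd300lg, Btnl9 and Rbp7 were detected in 61.0% of venular and 96.4% of capillary cells (37.4% and 90.6% when thinned). The arterial genes Gja4, Gja5, Sox17, Bmx and Sema3g gave close shares with at least 2, 17.5% in venular and 16.4% in capillary cells. With at least 3 the shares were 9.56% and 5.82%. Cells of arterial type were thus not separated from either class by the rule. Madcam1, the addressin of mucosal and lymphoid venules, had no UMI in 251 venular cells, which allows up to 1.20% of cells with a UMI and sets no limit on cells that express it.

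The 251 cells were not uniform. Of the 5 venular genes, 53 cells had 1, 58 had 2, 72 had 3, 56 had 4 and 12 had all 5. The most frequent patterns were Lrg1 alone in 28 cells, Selp, Sele, Vwf and Lrg1 together in 27 cells, and Vwf with Lrg1 in 21 cells. Of the 95 Sele+ cells, 80.0% also had Selp, and of the 141 Selp+ cells, 53.9% had Sele. Both genes chose the cells and Selp was detected in more of them, so these shares are descriptions only.

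Ackr1 followed the number of venular genes detected. It had a UMI in 1.89% of cells with 1 of these genes, 12.1% with 2, 34.7% with 3, 46.4% with 4 and 41.7% with 5, at median depths of 3472, 4790, 4754, 5376 and 5076.5 UMIs. Gja4, which encodes the arterial connexin 37, ran the other way, from 35.8% of cells with 1 venular gene through 25.9% and 15.3% to 7.14% with 4 and 8.33% with 5. Plvap, the protein of the diaphragms that span endothelial caveolae and fenestrae, was detected in 69.8% of cells with 1 venular gene, 98.6% with 3 and 100% with 4 or 5. The unused capillary gene Fabp4 rose as well. It was detected in 60.4% of cells with 1 venular gene, 79.3% with 2, 94.4% with 3, 92.9% with 4 and 100% with 5. Cd300lg was detected in 32.1% of cells with 1 venular gene, 24.1% with 2, 43.1% with 3 and 46.4% with 4. Rgcc lay at 49.1% with 1, 51.8% with 4 and 41.7% with 5. None of these capillary genes was detected in a smaller share of cells with 4 venular genes than with 1. These splits used cells pooled over libraries, with no test.

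The threshold of the rule is a lead of 1 gene, and 117 cells sat just inside it, with 69 at a lead of 2, 43 at 3 and 22 at 4. Ackr1 had a UMI in 7.69%, 27.5%, 48.8% and 68.2% of these, and in 4.02% of the 174 cells just outside it with equal numbers of both sets. Plvap was detected in 82.9% of the cells just inside and 78.2% just outside. Many members at the threshold therefore lacked Ackr1, and the closing section returns to cells with a lead of at least 2 genes.

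RNA of other cell types was present in both classes. In CPM, the UMIs of a gene per 1000000 UMIs of a library's venular sum, 12 fibroblast markers together ranged from 690.0 to 10175 (median 3309), against 1693 to 13894 (median 6664) in the capillary sums. The summed erythroid markers had medians of 385 CPM in venular and 1455 CPM in capillary sums, the mural markers 715 and 995 CPM, and the immune markers 38.3 and 22.1 CPM. The platelet markers, a list that does not hold Selp or Vwf, had medians of 20.2 and 10.96 CPM. Ptprc, which encodes the CD45 used in the sort, had no UMI in the 251 cells, which again limits only cells with a UMI, to 1.20%. Doublet scores among the highest 6% of a library were found in 10.8% of venular and 7.41% of capillary cells, and results without these cells are among the alternatives.

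Across the 12 venular sums, Selp lay at 299 to 4191 CPM (median 513), and the highest value was the third resolving library, a sum of 11 cells. Lrg1 ranged over 354 to 1911 CPM (median 688), with its highest value in the second rest library. Vwf was at 88.6 to 895 CPM (median 233), highest in the first peak library, a sum of 12 cells. The induced adhesion genes Sele at 66.9 to 530.1 CPM (median 179) and Vcam1 at 55.9 to 299.8 CPM (median 173) varied as widely. Selp had 253 UMIs in the third resolving library, spread over 9 of its 11 cells. For each of the 5 genes the ranges of the 4 labels overlapped.

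The venular share of vascular cells was compared between labels, the comparison the series was designed for. At rest it was 12.1%, 31.2% and 14.5% in the 3 libraries in the order of their numbers (17 of 140, 43 of 138 and 11 of 76 cells). At the peak it was 9.68%, 27.2% and 6.09%, at the resolving stage 15.5%, 22.8% and 5.95%, and at the resolved stage 33.3%, 30.5% and 3.99%. The libraries of every label overlapped with those at rest. The mean was 19.3% ± 10.4 at rest, 14.3% ± 11.3 at the peak, 14.7% ± 8.44 resolving and 22.6% ± 16.2 resolved (SD, n = 3).

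The differences from rest were -4.94 percentage points for the peak (p = 0.5), -4.51 for resolving (p = 0.7) and 3.35 for resolved (p = 0.9, exact two-sided permutation tests), each with an adjusted p of 0.9 over the 3 tests. These p-values, and those below between labels or runs, measure the spread between libraries of pooled animals. Where the library was a block, they measure how far the difference between venular and capillary cells varied from library to library. With 3 libraries against 3 the smallest p is 0.1, so this design could not pass 0.05. Within suffix runs, the peak library differed from the rest library by -2.47 points in run 1-3 and -3.99 in run 4-6, the resolving library by 3.37 in run 1-3 and 8.30 in run 7-9, and the resolved library by 2.17 in run 4-6 and 16.0 in run 7-9. Each of these is 1 library against 1 and has no test.

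By suffix run, the shares separated more. They were 9.68 to 15.5% in run 1-3, 27.2 to 33.3% in run 4-6, 14.5 to 30.5% in run 7-9 and 3.99 to 6.09% in run 10-12, and run 1-3 overlapped with neither run 4-6 nor run 10-12. The denominator moved as well: vascular cells were 11.4 to 19.7% of all cells in run 10-12 and 4.28 to 9.42% in the others. Against all cells, the venular share was 1.53 to 2.36% in run 4-6, 0.889 to 1.46% in run 1-3, 0.877 to 1.34% in run 7-9 and 0.697 to 0.785% in run 10-12. Lrg1 and the capillary genes of the rule, which enter this share directly, also differed between runs. Without Lrg1 in the rule the run means were 9.20, 19.5, 16.0 and 3.87% in place of 12.4, 30.6, 22.6 and 5.34%, and with every cell thinned to 2000 UMIs they were 12.3, 25.9, 19.4 and 6.17%.

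**Figure D1:**
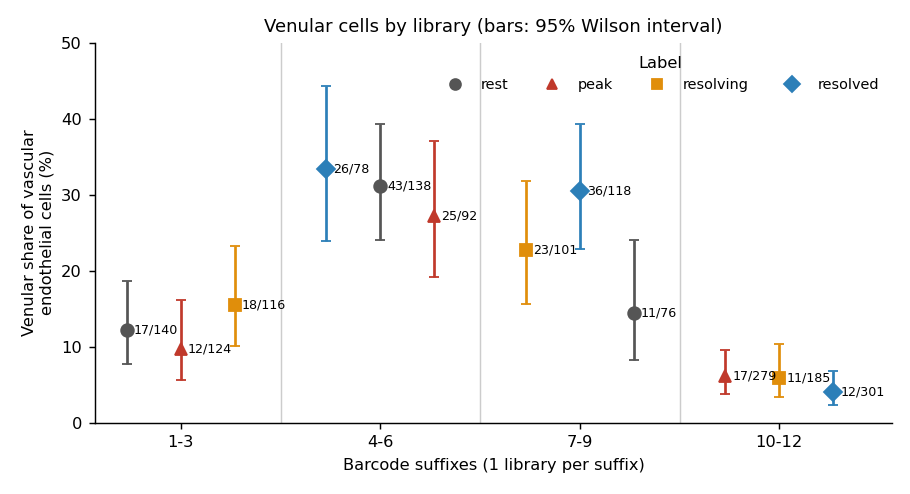
Venular cells as a percentage of vascular endothelial cells (y axis) in each library, ordered by barcode suffix and grouped by run (x axis), with the label as colour and shape, the cell counts beside each point and 95% Wilson intervals as bars, which cover counting error only. The 3 libraries of run 4-6 sit between 27.2 and 33.3% and those of run 10-12 between 3.99 and 6.09%, although each run holds 3 different labels.

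Summed over all vascular cells, the genes that split venular from capillary cells had no part in the choice of cells and could be tested. These sums cannot tell more venular cells from more RNA per cell. Between labels, edgeR (quasi-likelihood F test, Benjamini-Hochberg) called 0 of 7029 genes at the peak, 0 at the resolving and 0 at the resolved stage, that is 0% each, with 95, 162 and 111 genes at an unadjusted p under 0.05, and DESeq2 called 0 each. For Vcam1, the log2 fold change against rest was -1.08 ± 0.43 at the peak, -0.42 ± 0.42 resolving and -0.38 ± 0.42 resolved (SE). Lrg1 gave -0.49 ± 0.87, -1.05 ± 0.89 and -0.69 ± 0.88, and Selp -0.78 ± 0.59, 0.24 ± 0.58 and -0.70 ± 0.59. None of these passed, and Sele, at -0.27, -0.25 and 0.40, and Vwf, at -0.22, -0.17 and -0.63, missed the threshold too.

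Between suffix runs the same sums differed widely. Lrg1 lay at 119, 158 and 139 CPM in run 1-3 and at 421, 943 and 619 CPM in run 4-6, without overlap, which gave a log2 fold change of 2.30 ± 0.30 at an adjusted p of 5.57e-05. In run 7-9 it was at 352, 263 and 134 CPM (0.89 ± 0.31, adjusted p = 0.0721) and in run 10-12 at 89.9, 109 and 89.7 CPM (-0.51 ± 0.31, adjusted p = 0.792), both short of the threshold. Lrg1 was thus the 1 gene of the 5 that rose, beside 797 of 7029 genes (11.3%) that were higher and 676 (9.62%) that were lower in run 4-6.

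The other adhesion genes of the rule did not pass. In run 4-6, the fit put Selp at 1.20 ± 0.54, Sele at 0.69 ± 0.50, Vcam1 at 0.63 ± 0.35 and Vwf at -0.30 ± 0.31 on the log2 scale, with adjusted p of 0.122, 0.343, 0.213 and 0.528. Selp was at 67.3, 46.7 and 133 CPM in run 1-3 and 120.4, 265 and 148 CPM in run 4-6, so that the highest library of the first lay above the lowest of the other. In run 10-12 Selp was at 115, 363 and 50.4 CPM, and the resolving library among these had the highest value of all 12.

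All 5 capillary genes of the rule fell in runs 4-6 and 7-9, both measured against the same run 1-3. Aqp7, a water and glycerol channel, went from 326, 322 and 259.5 CPM in run 1-3 to 57.96, 78.5 and 61.7 in run 4-6 and 127, 63.3 and 131 in run 7-9, with log2 fold changes of -2.13 ± 0.23 at an adjusted p of 1.06e-05 and -1.53 ± 0.23 at an adjusted p of 0.00053. Timp4, an inhibitor of metalloproteinases, gave -1.90 ± 0.24 and -1.67 ± 0.24, Cd36 -1.07 ± 0.15 and -1.09 ± 0.15, Car4 -0.99 ± 0.23 and -1.32 ± 0.24, and Gpihbp1 -1.01 ± 0.14 and -0.56 ± 0.14. In run 7-9, 431 genes (6.13%) were higher and 333 (4.74%) lower. Of the named genes called in these vascular sums, 47 of 76 passed in every alternative for run 4-6 and 2 of 63 for run 7-9. Run 10-12 differed from run 1-3 in 1 gene, Prelp, named for being the only call (0.0142%), and 0 of these 10 genes passed there.

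**Figure D2:**
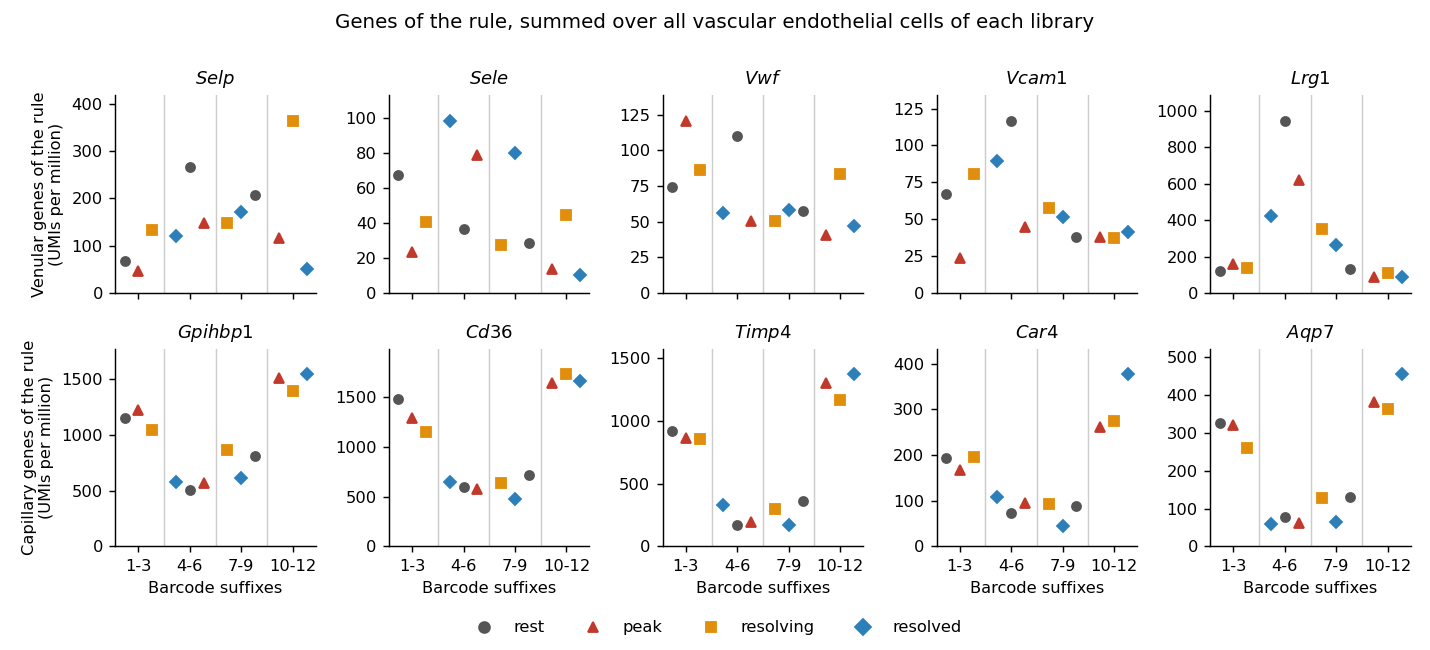
CPM (y axes, from 0) of the 5 venular and 5 capillary genes of the rule in the sum over all vascular endothelial cells of each library, grouped by barcode suffix run (x axes), with the label as colour and shape. Lrg1 is highest in the 3 libraries of run 4-6 and the 5 capillary genes fell in runs 4-6 and 7-9 against run 1-3, while Selp, Sele, Vwf and Vcam1 overlap between runs 1-3 and 4-6.

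Venular and capillary cells of the same libraries were then compared in a fit with the library as a block, leaving out the 19 genes of the rule. The fit tested 5323 genes and called 316 (5.94%) higher and 451 (8.47%) lower in venular cells, at a median log2 fold change over all genes of 0.003. The venous identity list had 7 of 10 tested genes higher and 0 lower, with a median of 1.14, and the capillary identity list had 0 of 12 higher and 12 lower, with a median of -1.98. The rule had chosen these cells by related genes of the same cells, so both counts describe how the split carried over to genes it did not use. Genes low in either class could pass the filter on low counts only through the other class. Ackr1, Bst1 and Nt5e passed it only through the venular sums, and Slc1a1 only with the capillary sums. The list counts therefore cover the members that passed this filter. Values after ± are standard errors of the log2 fold change, and all genes said to rise or fall passed edgeR's quasi-likelihood test at an adjusted p under 0.05 with a change of over 0.5 on the log2 scale.

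Ackr1 was the venous gene that differed most. It lay at 98.5 to 533 CPM with a median of 164 in the 12 venular sums and at 0 to 42.7 CPM with a median of 0.825 in the capillary sums, 6 of which had no UMI. No venular library reached down to any capillary one, with a log2 fold change of 5.86 ± 0.42, given as a description since Ackr1 passed the filter through the venular sums. Slco2a1, the prostaglandin transporter, ranged over 107 to 336 CPM with a median of 178 in venular and 4.13 to 65.9 CPM with a median of 19.05 in capillary sums, again without overlap (2.94 ± 0.28). Bst1, which encodes the ADP-ribosyl cyclase CD157, lay at 18.6 to 98.5 CPM with a median of 44.9 against 0 to 26.05 CPM with a median of 3.68 (2.77 ± 0.47). Ptgs1, the constitutive cyclooxygenase of prostaglandin synthesis, gave 1.74 ± 0.22, and the interleukin-1 receptor gene Il1r1 1.11 ± 0.25. Nr2f2, the transcription factor that specifies venous fate, rose by 1.16 ± 0.26 and Tmem252 by 1.06 ± 0.21.

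Among capillary genes, Mgll (monoacylglycerol lipase) lay at 87.7 to 303 CPM with a median of 212 in venular and 324 to 894 CPM with a median of 684 in capillary sums (-1.78 ± 0.13, adjusted p = 2.31e-09). The potassium channel gene Kcna5 gave -3.54 ± 0.29, the retinol-binding protein gene Rbp7 -3.48 ± 0.32 and the transcription factor gene Tcf15 -3.03 ± 0.27. Outside the lists, the largest decrease was that of Lpl, lipoprotein lipase, which Gpihbp1 anchors in capillaries. It was at 0 to 75.9 CPM with a median of 18.6 in venular and at 457 to 1629.5 CPM with a median of 962 in capillary sums, with no overlap (-4.99 ± 0.25, adjusted p = 4.45e-12). The other lower genes named by size were Slc1a1, Slc26a10, Vtn, Car8, Thrsp, Alpl, Halr1, Ptger4 and Adh1, at log2 fold changes from -4.52 to -2.90. Slc1a1, a glutamate transporter, had UMIs in 1 of 12 venular sums and in all 12 capillary sums, and Ptger4, the EP4 receptor for prostaglandin E2, had none in 6 venular sums.

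**Figure D3:**
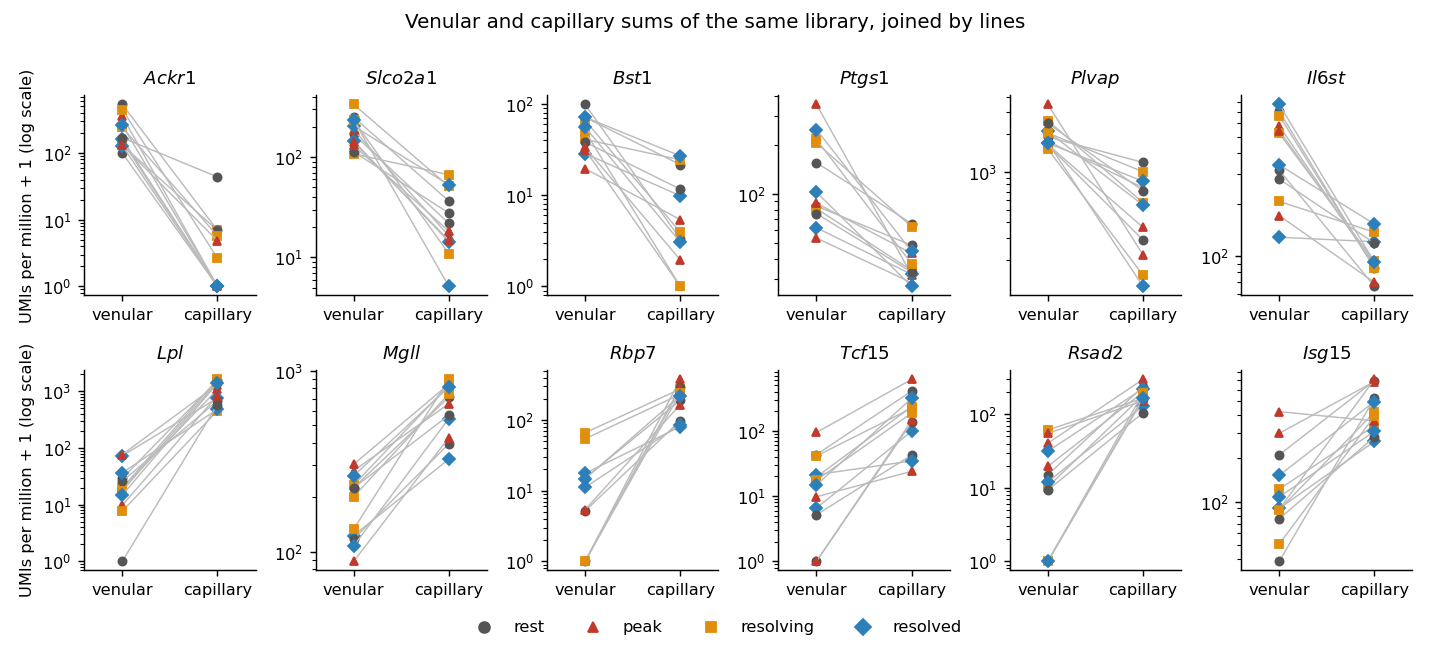
CPM plus 1 on log axes for 12 genes in the venular and the capillary sum of each library, joined by lines, with the label as colour and shape. Ackr1, Slco2a1, Ptgs1, Bst1, Plvap and Il6st are higher in venular sums, and Lpl, Mgll, Rbp7, Tcf15, Rsad2 and Isg15 lower, Isg15 in 11 of 12 libraries and the others in all 12. Points at 1 are sums with no UMI.

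Genes beyond the lists that were higher in venular cells of all 12 libraries included several with roles at the cell surface. Nt5e encodes CD73, which forms adenosine from AMP, and lay at 29.1 to 139.8 CPM with a median of 55.3 against 0 to 23.6 CPM with a median of 4.002 (3.25 ± 0.52). Entpd1, from the haemostasis list, encodes CD39, the enzyme before it in that pathway, and lay at 84.4 to 298 CPM with a median of 188 against 51.7 to 115 CPM with a median of 78.1 (1.29 ± 0.15). Mctp1 gave 2.99 ± 0.38, the integrin gene Itgb4 2.67 ± 0.37, the adhesion gene Cadm3 2.56 ± 0.39, the elastin gene Eln 1.96 ± 0.27 and the legumain gene Lgmn 1.91 ± 0.17, with Ehd3, Thsd7a and Rasa4 between 1.89 and 2.01.

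Adhesion and junction genes split in both directions, with 3 of 13 higher, 3 lower and a median of -0.24. Plvap lay at 1524 to 3469 CPM with a median of 1837 in venular and 122 to 1196 CPM with a median of 558 in capillary sums, without overlap (2.099 ± 0.24, adjusted p = 1.95e-06). Icam1, the ligand of leukocyte integrins, rose by 0.78 ± 0.19, and Mcam by 0.74 ± 0.16. The tight junction genes Cldn5 (-0.77 ± 0.16) and Jam3 (-1.002 ± 0.22) and the sialomucin gene Podxl (-0.53 ± 0.16) fell. Of the chemokine and cytokine list, 2 of 16 were higher and 3 lower, at a median of -0.22. Besides Ackr1, the higher gene was Csf3, the granulocyte colony-stimulating factor, at 3.24 ± 0.62 at an adjusted p of 0.000544, with a UMI in 17.5% of venular and 1.97% of capillary cells (13.01% and 1.13% thinned). Cxcl9 (-3.09 ± 0.45), Cxcl2 (-2.48 ± 0.46) and Cxcl12 (-1.153 ± 0.20), ligands for T cells, neutrophils and progenitors, were lower, though Cxcl2 turned to 0.030 in run 7-9 alone.

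The receptor and NF-kB list had 4 of 19 genes higher and 2 lower, at a median of 0.02. Il6st, which encodes the gp130 receptor chain shared by the interleukin-6 family, was at 127 to 771 CPM with a median of 431 in venular and 65.1 to 153 CPM with a median of 89.6 in capillary sums (2.07 ± 0.24, adjusted p = 1.49e-06). Traf1 (1.70 ± 0.37) and Bcl3 (0.94 ± 0.27), both NF-kB targets that modulate the pathway, also rose, and Irf1 (-1.04 ± 0.18) and Ifngr1 (-0.60 ± 0.14) fell. The haemostasis and vascular tone list had 6 of 15 higher and 1 lower, at a median of 0.39. Besides Entpd1 and Ptgs1 the higher genes included the angiotensin-converting enzyme gene Ace (0.99 ± 0.15), the protein C receptor gene Procr (0.86 ± 0.29) and the tissue factor pathway inhibitor gene Tfpi (1.02 ± 0.31), while the endothelin receptor gene Ednrb fell (-2.02 ± 0.32).

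Interferon-induced genes were lower in venular cells, 15 of 22 tested with 0 higher and a median of -0.85. Isg15, a ubiquitin-like modifier, lay at 37.4 to 423 CPM with a median of 97.6 against 262 to 710.2 CPM with a median of 406 (-1.73 ± 0.22, adjusted p = 6.92e-06). Rsad2, which encodes viperin, had no UMI in 3 venular sums and lay at 104 to 298 CPM with a median of 174 in capillary sums (-2.97 ± 0.27), and Ifit1 (-2.69 ± 0.27) and Ifit3 (-2.16 ± 0.33) went the same way. Of the MHC and antigen presentation list, 6 of 10 were lower and 0 higher, at a median of -0.62, among them B2m (-0.75 ± 0.10), H2-K1 (-0.61 ± 0.14) and the immunoproteasome genes Psmb8 (-0.62 ± 0.13) and Psmb10 (-0.68 ± 0.16).

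Other lists moved less evenly. Among angiopoietin and VEGF genes, 1 of 17 was higher (Apln, 1.151 ± 0.40) and 4 lower, at a median of -0.10, with Nrp1 at -1.36 ± 0.14, the VEGF receptor gene Flt1 at -0.89 ± 0.13 and its ligand gene Pgf at -1.96 ± 0.45. Notch genes had 0 of 8 higher and 3 lower (median -0.41), with the ligand gene Dll4 at -1.14 ± 0.21 and its target Hey1 at -1.503 ± 0.26. Both also stand on the arterial list, which had 4 of 12 lower and 1 higher (Bmx, 2.38 ± 0.40) at a median of -0.49. Basement membrane genes had 3 of 15 higher and 3 lower (median 0.11), with Col18a1 at 1.69 ± 0.25, Col15a1 at 1.05 ± 0.15 and Mgp at 1.66 ± 0.32. Immediate early and stress genes had 9 of 20 lower and 1 higher (median -0.50), led by Hspa1a at -1.67 ± 0.18, and cell cycle genes 2 of 17 higher (Tyms and Ccnb2) and 0 lower (median 0.36).

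**Figure D4:**
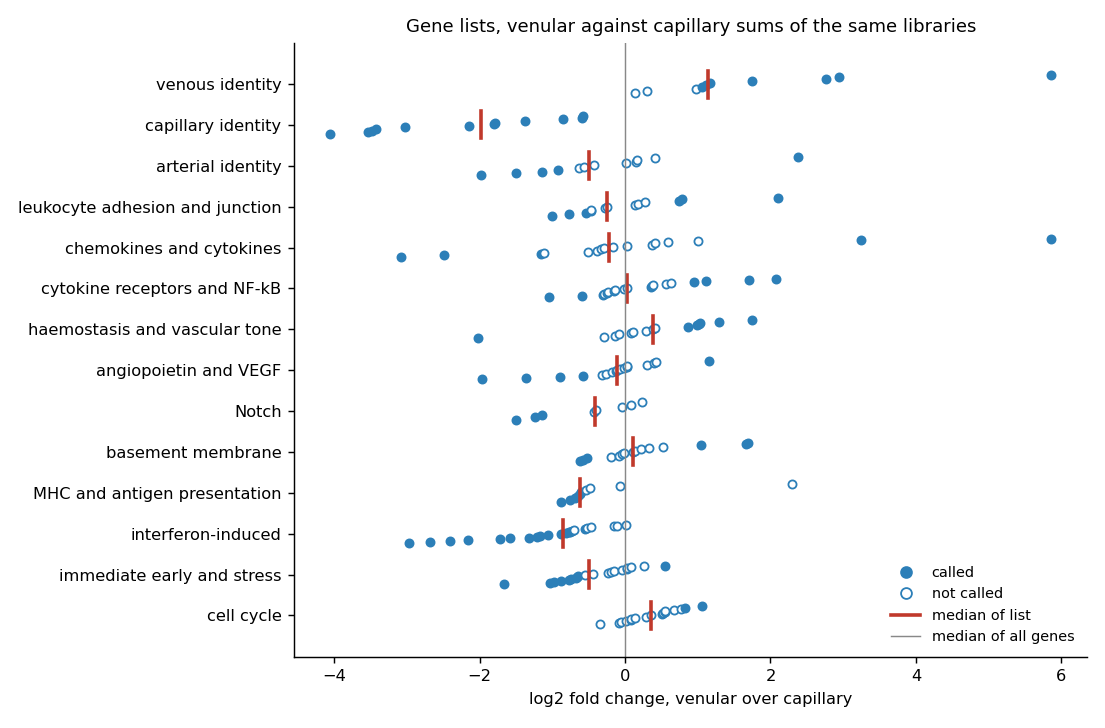
log2 fold change of venular over capillary sums (x axis) for each tested gene of 14 lists (y axis), with filled points for genes called by edgeR's quasi-likelihood test, open points for the others, a red bar at each list's median and a grey line at the median of all 5323 genes. All 12 capillary identity genes and 15 of 22 interferon-induced genes are filled and left of the line, and 7 of 10 venous identity genes filled and right of it.

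Markers of other cell types differed in the same comparison. Lower in venular sums were 4 of 5 erythroid genes (median -2.64), 3 of 9 muscle, cartilage, bone and tendon genes (median -1.53), 2 of 10 fibroblast genes (Dcn and Gsn, list median -0.67) and both tested immune genes. The immune genes were S100a8 and S100a9, and 380 of the 423 S100a9 UMIs of all capillary cells came from 1 cell of the second rest library. With DESeq2 they turned to 0.029 and 0.37, S100a9 was higher in venular sums in 4 libraries and in capillary sums in 4, and the summed immune markers had the higher median in venular sums. Of 8 mural genes, Rgs5 and Abcc9 were lower and Tagln higher (median -0.89), but Tagln turned to -0.04 with at least 20 cells per sum and to -0.58 in run 4-6 alone. Their part in the other differences was not tested. The 767 calls became 444 with cells thinned to 2000 UMIs, 418 with at least 20 cells per sum and 375 without Lrg1 in the rule, and each suffix run alone gave 251, 271, 40 and 401. All of these settings also tested fewer libraries, as sums under the limit on cells were dropped. Of the 83 named genes called, 17 passed in every alternative, with one direction of change.

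Within venular cells, expression was compared between labels over the sums of 11 to 43 cells per library, at 53474 to 240138 UMIs. No gene passed: edgeR's quasi-likelihood test called 0 of 2019 genes at the peak, 0 at the resolving and 0 at the resolved stage against rest (0% each). At an unadjusted p under 0.05 there were 23, 52 and 33 genes, and DESeq2 called 0, 2 and 0. Interferon-induced genes had median log2 fold changes of 0.41 at the peak, -0.08 resolving and -0.11 resolved, and immediate early and stress genes of 0.25, 0.22 and -0.09, with 0 called in either list, against medians over all genes of 0.02, 0.002 and 0.03. Fibroblast markers lay higher, at medians of 1.04, 2.52 and 1.53, with 0 of 9 called. Each label was spread over 3 suffix runs, and with the run as a block the calls were 1 at the peak, 8 at the resolving and 2 at the resolved stage. The closing section lists other settings, so the 0 calls hold for this fit and do not show that the labels were alike.

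Whether labels changed venular and capillary cells by different amounts was tested as an interaction. It passed for 1 of 5323 genes at the peak (0.0188%), 0 at the resolving stage (223 at an unadjusted p under 0.05 in edgeR) and 2 at the resolved stage (0.0376%), and these genes are described in the closing section with the few cells that carried them.

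Between suffix runs, venular cells differed in many genes. Against run 1-3, 192 of 2019 genes (9.51%) were higher and 253 (12.5%) lower in run 4-6, 62 (3.07%) higher and 67 (3.32%) lower in run 7-9 (6.39% either way), and 0 (0%) in run 10-12, where 167 had an unadjusted p under 0.05 and DESeq2 called 1. All 3 contrasts share the libraries of run 1-3. Of the named genes called, 16 of 55 passed in every alternative for run 4-6 and 1 of 34 for run 7-9. A gene near 0 in run 1-3 could enter the test only through a run where it was high, and a gene low in runs 4-6 and 7-9 only through the others. Counts of list members therefore cover those that passed the filter on low counts and not the whole lists. The sums of runs 1-3 and 10-12 held 11 to 18 cells each and those of runs 4-6 and 7-9 11 to 43.

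RNA of other cell types varied between the same runs. In the venular sums, fibroblast markers together lay at 690.0 to 8007 CPM in run 1-3, 1716 to 4948 in run 4-6, 804 to 10175 in run 7-9 and 799 to 5251 in run 10-12. Lymphatic markers lay at 42.2 to 196 CPM in run 1-3, 237 to 776 in run 4-6, 173 to 194 in run 7-9 and 10.8 to 464 in run 10-12, and immune markers at 0 to 18.6, 25.0 to 70.1, 18.7 to 66.9 and 43.3 to 68.9 CPM. Erythroid markers lay at 149 to 352 CPM in run 1-3, 375 to 881 in run 4-6, 337 to 421 in run 7-9 and 303 to 689 in run 10-12. Run 4-6 was above run 1-3 for these last 3 sets, whose part in the differences between runs was not tested. Of the 140 lymphatic marker UMIs of the first resolved library in run 4-6, 130 were of Nts, and 1 cell held 121 of these. Its place above run 1-3 thus rested on that cell. The immune markers had 6, 6 and 16 UMIs in the sums of run 4-6 and 1, 0 and 2 in those of run 1-3. The mural, platelet and bone, cartilage, muscle and tendon markers overlapped between the 2 runs.

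Immediate early and stress genes were the list with the most calls in run 4-6, with 17 of 20 lower and 0 higher at a median of -1.44, against -0.002 over all genes. In run 7-9, 10 were lower and 0 higher (median -0.94, all genes 0.002), and in run 10-12 0 passed (median 0.08, all genes 0.01). The AP-1 gene Junb lay at 4304, 4159 and 4259.7 CPM in run 1-3, 1308, 1695 and 1214 in run 4-6, 2099, 1330.3 and 1346 in run 7-9 and 5212, 3611 and 3623 in run 10-12. Runs 1-3 and 10-12 were high and the other two low, without overlap, with a log2 fold change of -1.66 ± 0.21 at an adjusted p of 0.000263 in run 4-6 and -1.45 ± 0.21 at an adjusted p of 0.00329 in run 7-9. Socs3, the feedback inhibitor of gp130 signalling, had log2 fold changes of -1.502 and -1.01, the mRNA-decay gene Zfp36 of -1.88 and -1.55, and the transcription factor gene Egr1 of -1.80 and -1.47.

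The receptor and NF-kB list was lower as well, with 5 of 8 lower in run 4-6 (median -1.26) and 3 of 8 in run 7-9 (median -0.88), and 0 higher in either. Il6st, higher in venular than in capillary sums, was at 703, 578 and 522 CPM in run 1-3, 127, 316 and 171 in run 4-6, 207, 340.2 and 281 in run 7-9 and 542, 663 and 771 in run 10-12, with log2 fold changes of -1.59 and -1.152. Irf1, a transcription factor of interferon responses, gave -2.14 ± 0.30 at an adjusted p of 0.000302 and -1.47 ± 0.31 at an adjusted p of 0.0105, and the NF-kB inhibitor gene Nfkbia -0.92 ± 0.24 and -1.05 ± 0.24. Interferon-induced genes had 3 of 8 lower in run 4-6 and 2 of 8 in run 7-9, Iigp1 and Gbp7 in both, and MHC genes 4 of 5 lower in run 4-6 and 0 in run 7-9.

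Basement membrane genes went in both directions in run 4-6, with 4 of 11 higher and 2 lower (median 0.89), while in run 7-9 6 were higher and 0 lower (median 1.28). The type IV collagen gene Col4a1 lay at 239, 55.9 and 149 CPM in run 1-3, 632, 479 and 916 in run 4-6, 642, 1036 and 916 in run 7-9 and 119, 66.3 and 138 in run 10-12, so that runs 4-6 and 7-9 stood above the others without overlap. Its log2 fold changes were 2.08 ± 0.38 at an adjusted p of 0.00171 and 2.45 ± 0.39 at an adjusted p of 0.00329. Its partner chain Col4a2 gave 2.04 ± 0.33 and 2.59 ± 0.34, and Col18a1, the source of endostatin, 2.34 ± 0.37 and 2.39 ± 0.38. Fibroblasts also make matrix transcripts, and their markers had 0 of 9 called in run 4-6 (median 0.53) and 1 of 9 in run 7-9 (median 0.94). That gene was Prg4, for which 1 cell of the second resolved library held 1291 of the 1624 UMIs of all venular cells. The part of fibroblast RNA in the collagen differences was not tested.

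Of 17 cell cycle genes, 6 passed the filter on low counts in these sums. Some could pass through runs 4-6 and 7-9 alone, where they were high, so their values are described with no count of calls. Top2a, the topoisomerase of dividing cells, lay at 0, 0 and 9.32 CPM in run 1-3, 144, 142 and 114 in run 4-6 and 40.1, 66.01 and 37.4 in run 7-9, and had no UMI in run 10-12. Birc5, which encodes survivin, had no UMI in runs 1-3 and 10-12 and lay at 149.6, 112 and 52.6 CPM in run 4-6 and 93.6, 71.1 and 112 in run 7-9. Stmn1, a microtubule regulator of dividing cells, lay at 42.2, 37.3 and 0 CPM in run 1-3, 344, 525 and 153 in run 4-6, 227, 183 and 355 in run 7-9 and 21.7, 33.1 and 0 in run 10-12. Hmgb2, a chromatin protein gene of proliferating cells with UMIs in all 12 sums, was at 127, 112 and 55.9 CPM in run 1-3, 537, 379 and 316 in run 4-6, 294, 183 and 318 in run 7-9 and 108, 133 and 165 in run 10-12, with runs 4-6 and 7-9 above the others. Over all libraries, 26 of 251 venular cells had a Birc5 UMI and 24 a Top2a UMI, and the cell with most held 10 of 100 and 14 of 108 UMIs.

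Adhesion and junction genes had 1 of 11 higher and 2 lower in run 4-6 (median -0.11), a share close to the 9.51% and 12.5% of all genes, and 0 in run 7-9. Haemostasis genes had 2 of 10 higher and 2 lower in run 4-6 (median -0.44), and 1 higher and 1 lower in run 7-9. Of 13 angiopoietin and VEGF genes, 4 were lower in run 4-6 (median -0.16), with 1 higher and 1 lower in run 7-9. Their higher genes in run 4-6 are not counted. A gene near 0 in run 1-3, such as Apln, could pass the filter on low counts only through other runs. Aplnr, the apelin receptor of sprouting and venous endothelium, was at 225, 55.9 and 112 CPM in run 1-3, 476, 449.7 and 298 in run 4-6, 381, 493 and 524 in run 7-9 and 32.5, 133 and 68.9 in run 10-12 (1.54 ± 0.39, adjusted p = 0.0115 and 1.74 ± 0.40, adjusted p = 0.0161). Its ligand gene Apln lay at 188, 49.97 and 145 CPM in run 4-6 and 0, 0 and 27.96 in run 1-3, where it had 3 UMIs in all. Ptprb, the phosphatase VE-PTP that restrains Tie2, fell (-1.72 and -1.11), and in run 4-6 so did Tek, Flt1 and Nrp1. Of the venous list, 2 of 6 tested were lower and 0 higher in run 4-6, Ptgs1 (-1.84 ± 0.38) and Cpe (-2.15 ± 0.75), and the Notch target Hes1 fell (-1.94). Cpe turned to 0.67 without Lrg1 in the rule. The chemokine gene Ccl7 and the peptide gene Nts had 0 or 1 UMI in each sum of run 1-3 and could pass the filter on low counts only through other runs, and 1 cell of the first resolved library held 121 of the 288 Nts UMIs.

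Genes outside the lists are given side by side for runs 4-6 and 7-9, since both contrasts use the libraries of run 1-3. Those named as higher in run 4-6 were Mest, Akr1b8, the membrane metalloproteinase gene Mmp14, the matrix protein gene Postn and the galectin gene Lgals1, and in run 7-9 Mest, Mmp14, Tgfbi, Pvrl2 and Lgals1. All but Lgals1 and Tgfbi had at most 2 UMIs in each sum of run 1-3, so they could pass the filter on low counts only through other runs. Mest lay at 471, 371 and 539 CPM in run 4-6, at 461, 589 and 18.7 in run 7-9, at 0, 18.6 and 18.6 in run 1-3 and at 21.7, 0 and 0 in run 10-12. Mmp14 lay at 271, 233 and 368 CPM in run 4-6, 234, 178 and 56.1 in run 7-9, 14.1, 18.6 and 18.6 in run 1-3 and 10.8, 166 and 13.8 in run 10-12. The third rest library thus sat with runs 1-3 and 10-12 for Mest and with runs 4-6 and 7-9 for Col4a1. Lgals1, better covered, was at 84.4, 37.3 and 298 CPM in run 1-3, 1175, 1108 and 1512 in run 4-6 and 1371, 751 and 561 in run 7-9 (2.94 ± 0.62 and 2.49 ± 0.63). Lower in run 4-6 were Ecm2, Fhl1, Nuak1, Fmo2 and Pcp4l1, from -3.48 to -2.74, and in run 7-9 Fmo1, Fmo2, Cytl1, Nuak1 and Itih5, from -4.38 to -2.37. Fmo2, a flavin monooxygenase, was at 464, 373 and 438 CPM in run 1-3 and 498, 447 and 358 in run 10-12, against 83.1, 91.6 and 17.5 in run 4-6 and 80.2, 15.2 and 74.8 in run 7-9. It could pass the filter on low counts only through runs 1-3 and 10-12.

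**Figure D5:**
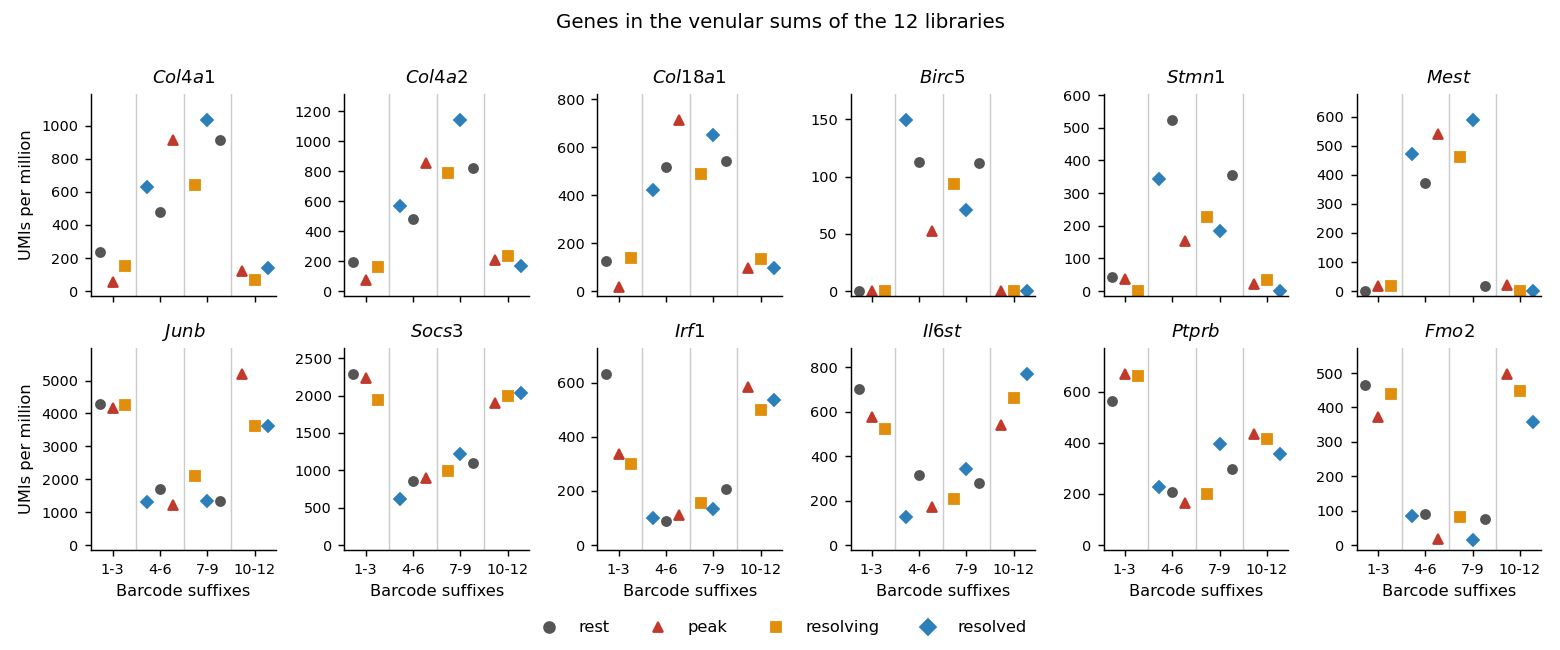
CPM (y axes, from 0) of 12 genes in the venular sum of each library, grouped by barcode suffix run (x axes), with the label as colour and shape. Col4a1, Col4a2, Col18a1, Birc5 and Stmn1 lie high in runs 4-6 and 7-9, and Junb, Socs3, Irf1, Il6st, Ptprb and Fmo2 are low in these runs, while the labels are spread over all levels.

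Whether venular cells differed between runs by another amount than capillary cells was tested as an interaction as well. It passed for 3 of 5323 genes in run 4-6 (0.0564%), 0 in run 7-9 and 0 in run 10-12, where 362 and 282 had an unadjusted p under 0.05 in edgeR. Most differences between runs were thus not shown to be larger or smaller in venular than in capillary cells. The 445 calls in run 4-6 became 68 and the 129 in run 7-9 became 20 with cells thinned to 2000 UMIs, and 184 and 66 without Lrg1 in the rule. Leaving out 1 library moved the counts of run 4-6 to as few as 256 (without the first resolving library) and those of run 7-9 to 48 (without the second resolving library).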

How the data were processed

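Single-cell counts were deposited by the authors as UMI counts per gene and cell, with 1 matrix of raw counts for each of 12 libraries (Cell Ranger with mm10 per the labels). The matrices held 21042 cells and 27998 gene identifiers. Cells with 501 to 4999 genes were kept, as in the study's methods, and classed by detected marker genes. UMI counts were summed per library and class where a class had at least 10 cells, and the sums were fitted in edgeR 4.0.16 (TMM, filterByExpr, quasi-likelihood F test, Benjamini-Hochberg adjustment, R 4.3.3). A gene was called at an adjusted p under 0.05 and an absolute log2 fold change over 0.5 (interactions at an adjusted p under 0.05). The library was a block between classes. Genes of the rule were left out of tests on cells chosen by them. Shares were compared by exact permutation tests in scipy 1.17.1. Venular sums held 53474 to 240138 UMIs, and intervals and limits cover counting error only. Scripts were checked on simulated data.

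The members and gene lists were chosen with earlier results of these data known. Of each list, the called genes with the lowest adjusted p were named, and beyond the lists the 10 (classes) or 5 (labels and runs) genes each way with the largest change that were called and kept to one direction in every library, or did not overlap between groups, leaving out unnamed gene models, haemoglobin and immunoglobulin genes. Other genes with values were chosen after their values were seen. Some genes that met this rule are not reported here. Doublets were scored with Scrublet in scanpy 1.11.5, whose own threshold marked 56 cells, so the highest 6% of scores per library were left out as an alternative. Other alternatives were DESeq2 1.42.0, other scaling and low-count filters, thinning, other marker rules, leaving out each library, and the replicate number or suffix run as a block.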

Additional observations from a re-analysis of the deposited data

Results flagged for a closer look

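A test of the difference itself between venular and capillary cells passed for 6 genes, in edgeR (quasi-likelihood F test, Benjamini-Hochberg). Junb and Pcp4l1 differed between runs 4-6 and 1-3 by different amounts in the 2 classes. Junb lay at 4304, 4159 and 4259.7 CPM in run 1-3 and 1308, 1695 and 1214 in run 4-6 in venular sums, without overlap, and at 4322, 3986 and 3808 and 3199, 3507 and 4385 in capillary sums, which overlapped. The difference of the log2 fold changes was -1.42 (adjusted p = 0.0412). Pcp4l1 went from 436, 690.0 and 336 to 111, 87.4 and 26.3 CPM in venular and from 271, 201 and 215 to 191, 169 and 115 CPM in capillary sums, with a difference of -2.13 (adjusted p = 0.0412). Both had lower venular than capillary values in run 4-6 and venular values near or above capillary ones in run 1-3.

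Serpinb1a, a protease inhibitor gene, differed by 4.45 between runs 4-6 and 1-3 (adjusted p = 0.0412). It lay at 14.1, 0 and 27.96 CPM in run 1-3 and 360.1, 221 and 52.6 in run 4-6 in venular sums and at 48.6, 33.1 and 61.99 and 31.1, 20.7 and 32.1 CPM in capillary sums. Its 167 venular UMIs were spread over 51 of 251 cells. Of these UMIs, 65 were in 8 of the 26 cells of the first resolved library, with 30 in 1 cell. Its venular values in run 1-3 were near 0, so the size of this difference is uncertain.

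For the other 3, single cells held a large part of the UMIs in 1 or both classes. Cxcl5, a neutrophil chemokine gene, had a difference of 9.51 between the peak and rest (adjusted p = 0.00151), with 66 of 104 venular UMIs in 1 cell of the second peak library and 54 of 109 capillary UMIs in 1 cell of the second rest library. For S100a9, a calprotectin subunit gene of neutrophils, the difference between resolved and rest was 8.66 (adjusted p = 0.00781), and 1 cell of the second rest library held 380 of 423 capillary UMIs. For Hp, the haptoglobin gene, it was 7.57 (adjusted p = 0.00134), and 1 cell of the second resolved library held 370 of 437 venular UMIs. None of the 6 genes passed in every alternative run.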

How the results depend on the processing

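Calls were few per library sum and moved with depth, the cells chosen and single libraries. Thinning, the rule without Lrg1 and the limit of 20 cells per sum also left fewer libraries in the fits of venular sums. The share of vascular cells turned for resolved against rest to -1.05 points with a lead of at least 2 genes and to -0.0409 points over all cells, and for resolving against rest to 3.37 within run 1-3 and 8.30 within run 7-9. Leaving out a library gave -11.4 to 1.01 points for the peak, -8.53 to 1.44 for resolving and -2.01 to 12.7 for resolved. Against the 767 calls between venular and capillary cells there were 444 with cells thinned to 2000 UMIs, 418 with at least 20 cells per sum, 375 without Lrg1 in the rule, 251, 271, 40 and 401 within runs 1-3, 4-6, 7-9 and 10-12, and 677 to 759 without a library. Against 0 calls between labels in venular cells, a lead of at least 2 genes gave 5, 11 and 14 at the peak, resolving and resolved stage, at least 20 cells per sum 5, 28 and 9, no filter on low counts 11, 43 and 9, the run as a block 1, 8 and 2 and DESeq2 2 for resolving, and leaving out a library gave 0.

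Against 445 calls in run 4-6 and 129 in run 7-9 in venular cells, thinning gave 68 and 20 and the rule without Lrg1 184 and 66, the rule without Vcam1 57 in run 7-9 and no filter 209 in run 7-9. Leaving out a library gave 256 to 496 and 48 to 154, with the lowest counts without the first resolving and the second resolving library, and run 4-6 also fell below 297 without the first rest (267), the second peak (296) and the first resolved (286) library. Run 10-12, with 0 calls, gave 5 with at least 4 endothelial genes, 1 with DESeq2, 26 with no filter and 0 to 4 without a library. The runs could not be fitted with a lead of at least 2 genes or at least 20 cells per sum.

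In all vascular cells, no filter gave 2, 6 and 7 calls between labels in place of 0, and the run as a block 2 for resolved. Against 1473 and 764 calls in runs 4-6 and 7-9, thinning gave 489 and 319 and leaving out a library 1042 to 1507 and 430 to 754. The 1 call in run 10-12 became 0 without the highest doublet scores, with at most 1% fibroblast UMIs, thinned, with at least 4 endothelial genes or with no lymphatic gene, 22 with DESeq2, 202 with no filter, 5 in the 6 libraries alone and 0 to 6 without a library. With no filter the interactions gave 25, 49 and 18 calls by label and 55, 51 and 24 by run, and without a library 0 to 2, 0 to 5, 0 to 5, 0 to 6, 0 to 1 and 0 to 5. Among named genes, S100a8 turned to 0.029 and S100a9 to 0.37 with DESeq2, Cxcl2 to 0.030 in run 7-9 alone, Tagln to -0.044 with at least 20 cells per sum and to -0.58 in run 4-6 alone, and Cpe in run 4-6 to 0.67 without Lrg1 in the rule. The causes were not tested.

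Deviations of same-numbered libraries correlated over 0.1 in 4 of 9 pairs in venular and 5 of 9 in vascular sums. The correlations ranged from -0.346 to 0.413 and from -0.487 to 0.543. Some same-numbered libraries also share a suffix run, so whether the replicate numbers pair libraries was not settled. With the replicate number as a block, the venular counts were 89 in run 4-6, 2 in run 7-9 and 2 for resolved against rest, and the vascular counts 590, 7 and 0 in runs 4-6, 7-9 and 10-12.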
